A study of Mus musculus with 16 samples.

Results

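The response of the normal thyroid gland to iodine shortage was followed in 8 of the 16 mice of the series, 4 WT mice on a low iodine diet (WT(LID)) and 4 WT mice on the normal diet (WT(ND)). The mice were chosen by their labels, and no measured value entered the choice. All 16 mice were C57BL/6 females aged about 1 month, weaned at 3 weeks, and each library came from the thyroid gland of a mouse fed the NIH-31 diet (ND) or the TD.95125 diet (LID), the latter for 6 days. The other 8 mice, 4 on each diet, carried the genotype *Glis3*-Pax8Cre, in which Cre driven from the *Pax8* locus removes exon 5 of the transcription factor gene *Glis3* in cells that express *Pax8*. They were used here to share the estimate of the spread and, in the last comparison, to ask where the WT response differed from theirs. The WT label was the only genotype given for the controls, so whether they carried the floxed allele is not stated. What the 2 diets contain besides iodine is not given in the sources used here, so an effect of iodine and an effect of another component cannot be told apart. Nothing states that glands were pooled.

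The thyroid follicle makes hormone from iodide, which SLC5A5 (also known as NIS) carries in from the blood. Iodide leaves the cell into the follicle lumen, where it is joined to tyrosines of thyroglobulin (TG) with hydrogen peroxide from the DUOX enzymes. The follicular cell later takes TG back up, cuts it in lysosomes and releases T4 and T3. When hormone falls, the pituitary secretes more TSH, whose receptor on the follicular cell signals through cAMP, and a gland under lasting TSH drive takes up more iodide, grows and becomes more vascular, which is known as goiter. Serum hormone levels were not analysed here.

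Between 63122523 and 82374267 read pairs were counted per WT mouse, apart from WT(ND) replicate 4, with 461077969, so its low values are the more precise ones. Levels are given as CPM, counts scaled to equal library size and the TMM factors of edgeR, as mean ± SD of 4 mice, or mouse by mouse in the order of replicates 1 to 4. Log2 fold changes are followed by their standard error (SE) and are positive where WT(LID) was higher. The follicular markers *Tg*, *Pax8* and *Nkx2-1* were high in all 8 libraries, as the labelled tissue requires, and *Tg* alone took 19.6% to 29.3% of the counts. RNA of neighbouring tissues was present too. The summed thymocyte markers lay at 194 and 73.2 CPM in WT(ND) replicates 1 and 2 and at 263.8 CPM in WT(LID) replicate 3, against 12.6 to 37.0 CPM in the other 5 WT mice, and the summed skeletal muscle markers ranged from 4.30 to 1376 CPM.

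WT(ND) replicate 3 stood apart from its group. On 80 genes that separated the *Glis3*-Pax8Cre(ND) mice from the other 3 WT(ND) mice by over 3-fold, its median position was 55.6% of the way towards *Glis3*-Pax8Cre(ND), while the other 3 lay between -2.73% and 4.02%. Replicate 3 fell outside the range of those 3 mice for 77 of the 80 genes. The genes were picked by the values of those 3 mice, and replicate 3 had no part in the choice. The narrow positions of the 3 therefore follow in part from the choice, and they are no fair yardstick for replicate 3. The same limit holds for the count of 77. Replicate 3 held 996 CPM of *Pax8* against 374 to 397 CPM in the other WT(ND) mice. Results that rest on this library are given with and without it, and of the 2075 genes counted as changed below, 1843 were also among the 2042 changed when it was left out.

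Thyroids of the LID mice differed from those of the ND mice in a large share of the transcriptome. A gene is called here where its adjusted p is under 0.05, and changed where its adjusted p is under 0.01 and its fold change over 2. Of 16630 genes tested, 1277 were changed upwards (7.68%) and 798 downwards (4.80%). For 2041 of these 2075 genes the 4 values of one diet did not overlap the 4 of the other. The genes were picked by the same values, so this separation follows in part from the choice and adds no support. At the looser threshold, 3476 genes (20.9%) were called higher and 3467 (20.8%) lower, and these are the shares beside which the gene lists below are to be read. The upward changes were the steeper ones, with 454 genes over 4-fold against 134 downwards, and 40 over 16-fold against 8. Scaling by library size alone gave 1016 higher and 1138 lower, so that 47.2% instead of 61.5% of the changed genes were higher. It also shifted the median over all tested genes from -0.03 to -0.19 on the log2 scale. The gene lists were written with earlier results of these data known, and no test was run on a list.

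**Figure D1:**
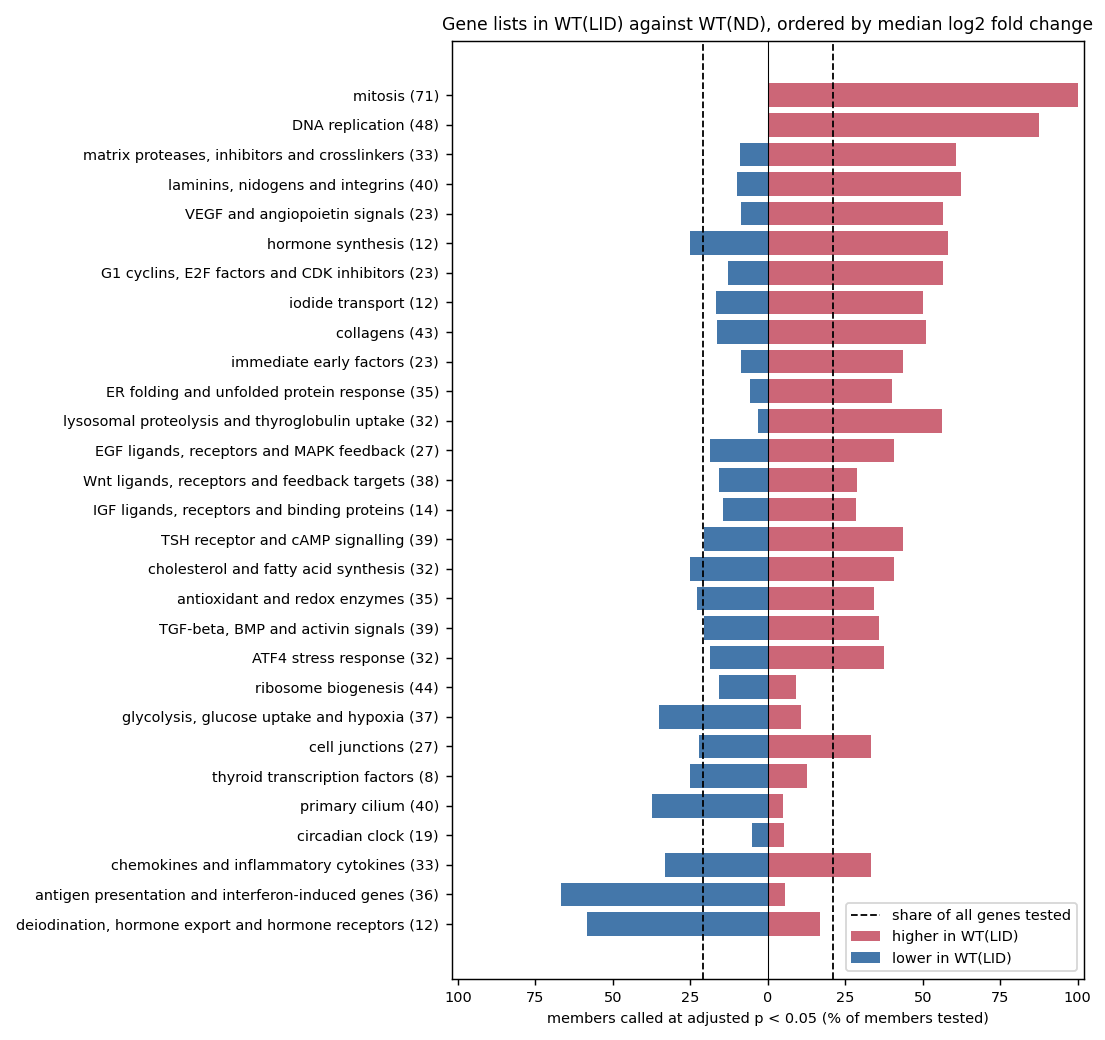
Share of the tested members of each gene list (number tested in brackets) called higher (right) or lower (left) in WT(LID) than in WT(ND), in percent. Dashed lines give the share of all genes tested, 20.9% higher and 20.8% lower, and all 71 mitosis genes lie on the right.

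Iodide transport was led by *Slc5a5* (mm10, chr8:70882889-70892757, minus strand), the basolateral sodium/iodide symporter. In the ND mice it stood at 182, 187, 81.8 and 132 CPM, and in the LID mice at 1898, 2111, 2178 and 1927 CPM. Every LID value was over 10 times every ND value, and the lowest ND value was that of replicate 3. The log2 fold change was 3.80 ± 0.25 (adjusted p = 3.80e-08), and 3.61 ± 0.21, adjusted p = 2.48e-08 without WT(ND) replicate 3. *Slc26a4* (pendrin), an apical anion exchanger, rose from 0.831 ± 0.303 CPM to 5.88 ± 1.14 CPM (log2 fold change 2.82 ± 0.28, adjusted p = 1.62e-06), but remained far below *Slc26a7*, another anion exchanger of the follicular cell, whose level was 653 ± 65.7 CPM on ND and 779 ± 41.99 CPM on LID (log2 fold change 0.26 ± 0.20, adjusted p = 0.328). These CPM levels are not divided by gene length. The calcium-activated chloride channel *Ano1*, another candidate for apical iodide exit, rose from 24.9 ± 14.03 CPM to 65.8 ± 11.03 CPM (log2 fold change 1.40 ± 0.29, adjusted p = 0.00139, and adjusted p = 0.0502 without the 3 WT libraries with the most thymocyte RNA). The potassium channel subunits *Kcnq1* (log2 fold change 1.08 ± 0.20, adjusted p = 0.000524) and *Kcne3* (log2 fold change 1.90 ± 0.18, adjusted p = 1.02e-06) rose as well. *Kcne2*, the subunit known to pair with KCNQ1 in thyroid, was low at 0.181 ± 0.0521 CPM and 0.103 ± 0.0537 CPM (log2 fold change -0.77 ± 0.49, adjusted p = 0.225). In WT(LID) replicate 3 it was at 0.0360 CPM, below the 0.0475 CPM that 3 counts make there. The span of *Kcnq1* overlaps that of the antisense *Kcnq1ot1*, and the counts do not use strand. Of the 12 members of the list, 6 were called higher and 2 lower, with a median log2 fold change of 0.56.

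The genes of hormone synthesis differed in whether they moved. *Tg*, the gene of the hormone precursor, was not called. It stood at 303736, 200192, 226403 and 292090.3 CPM on ND and 224533, 313733, 289429.8 and 206312 CPM on LID. The groups overlapped fully, and the log2 fold change of 0.02 ± 0.23 (adjusted p = 0.965) turned its sign under 7 alternative analyses without being called in any of them. *Iyd*, the deiodinase that recycles iodide from iodotyrosines, rose from 763 ± 106 CPM to 1338 ± 72.6 CPM (log2 fold change 0.81 ± 0.13, adjusted p = 0.000148), with no overlap.

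The hydrogen peroxide genes fell into 2 pairs. *Duoxa2*, the maturation factor of DUOX2, was at 59.3, 60.8, 86.1 and 53.6 CPM on ND and 115, 111, 114 and 112 CPM on LID, and every LID mouse exceeded every ND mouse (log2 fold change 0.80 ± 0.17, adjusted p = 0.00121). *Duox2* itself rose from 38.9 ± 5.33 CPM to 56.8 ± 8.94 CPM (log2 fold change 0.55 ± 0.19, adjusted p = 0.0274). Its call was lost when any 1 of these 4 mice was left out (adjusted p = 0.0798 without WT(LID) replicate 2, adjusted p = 0.0629 without WT(LID) replicate 3, adjusted p = 0.0726 without WT(ND) replicate 2 and adjusted p = 0.0761 without WT(ND) replicate 4). The call was lost too under library-size scaling (adjusted p = 0.06) and without the 3 WT libraries with the most thymocyte RNA (adjusted p = 0.164). The paralogous pair went the other way. *Duox1* was at 7.41, 6.32, 22.6 and 4.56 CPM on ND and 4.87, 4.79, 2.52 and 2.73 CPM on LID, so that the ND mean was set by replicate 3. Its log2 fold change was -1.45 ± 0.42 (adjusted p = 0.0119), and -0.70 ± 0.26, adjusted p = 0.0484 without that mouse. *Duoxa1* fell from 12.04 ± 7.02 CPM to 3.83 ± 0.647 CPM (log2 fold change -1.65 ± 0.31, adjusted p = 0.000647), and by 1.15 on the log2 scale without replicate 3. Extracellular superoxide dismutase (*Sod3*), which turns superoxide into hydrogen peroxide, rose from 158 ± 28.7 CPM to 1899.5 ± 69.2 CPM (log2 fold change 3.59 ± 0.19, adjusted p = 5.13e-09). In all, 7 of the 12 genes on the list were called higher and 3 lower.

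**Figure D2:**
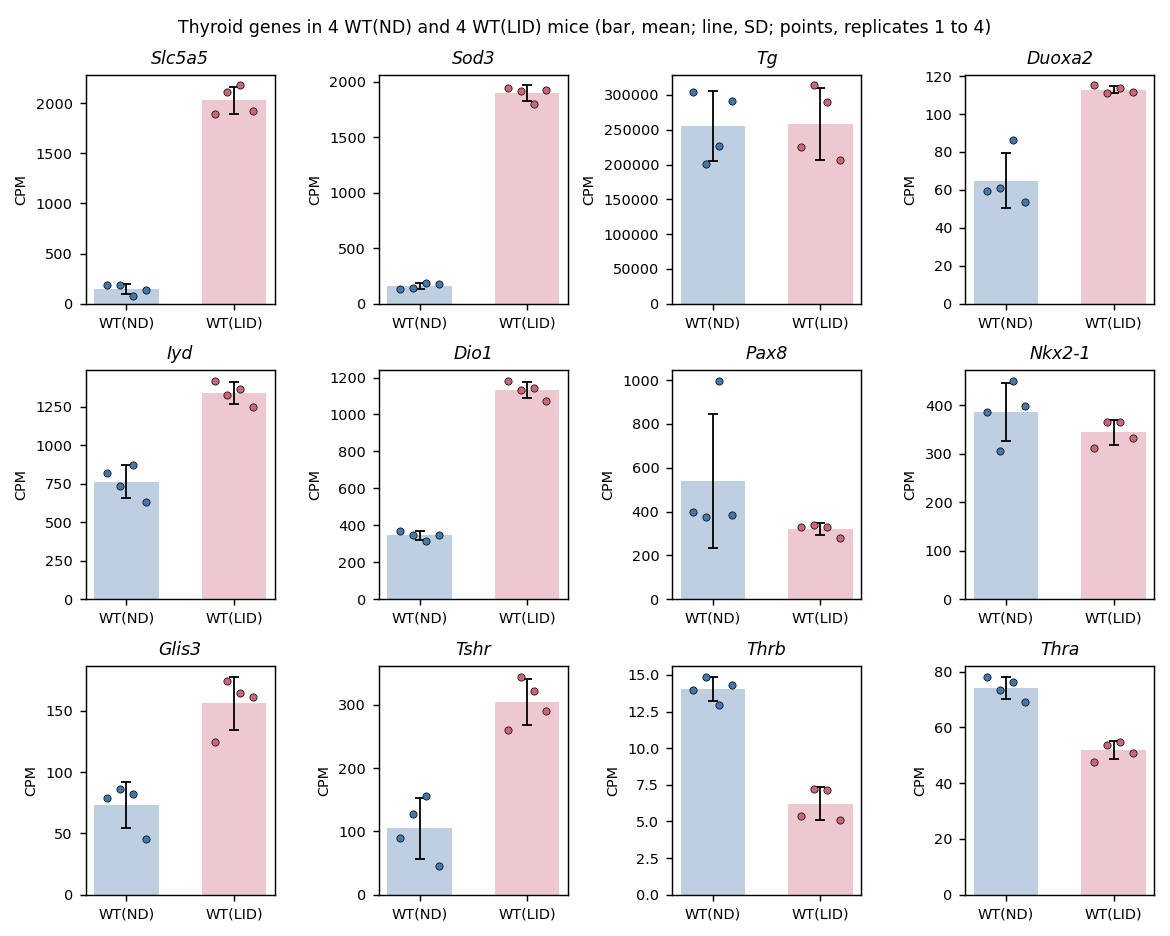
CPM of 12 thyroid genes in the 4 WT(ND) and 4 WT(LID) mice. Bars are means from 0, lines the SD and points the mice in the order of replicates 1 to 4. *Slc5a5*, *Sod3*, *Duoxa2*, *Iyd*, *Dio1*, *Glis3* and *Tshr* show no overlap and rise, *Thrb* and *Thra* fall without overlap, *Tg* and *Nkx2-1* overlap, and *Pax8* of WT(ND) replicate 3 stands at 996 CPM.

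Genes that handle finished hormone were mostly lower. *Dio1*, the type 1 deiodinase that converts T4 to T3, was one of the 2 members of this list that were called higher. The ND mice had 369, 346, 314 and 350.2 CPM and the LID mice 1181, 1133, 1141 and 1074 CPM. The mice of each diet lay close together and far from the other diet (log2 fold change 1.72 ± 0.11, adjusted p = 3.63e-08). The nuclear hormone receptors fell, *Thrb* from 14.02 ± 0.804 CPM to 6.23 ± 1.14 CPM (log2 fold change -1.17 ± 0.17, adjusted p = 7.25e-05) and *Thra* from 74.2 ± 4.004 CPM to 51.7 ± 3.23 CPM (log2 fold change -0.52 ± 0.14, adjusted p = 0.00757, and adjusted p = 0.0752 without the 3 WT libraries with the most thymocyte RNA). The span of *Thra* overlaps that of *Nr1d1* on the other strand, and the counts do not use strand. *Dio2*, the type 2 deiodinase, was at 17.5 ± 6.65 CPM and 11.1 ± 1.30 CPM (log2 fold change -0.66 ± 0.50, adjusted p = 0.31). Over the list, 2 of 12 members were higher and 7 lower (median log2 fold change -0.68), against 20.8% of all genes called lower.

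Most of the transcription factors that define the follicular cell were not called. *Nkx2-1* was at 386 ± 59.4 CPM and 344 ± 26.3 CPM (log2 fold change -0.16 ± 0.14, adjusted p = 0.389), *Foxe1* at 142 ± 23.4 CPM and 139 ± 13.9 CPM (log2 fold change -0.03 ± 0.19, adjusted p = 0.913), and *Hhex* at 136 ± 28.1 CPM and 169 ± 12.6 CPM (log2 fold change 0.31 ± 0.17, adjusted p = 0.161). Those 3 were not called. *Pax8* was called lower (log2 fold change -0.75 ± 0.26, adjusted p = 0.0313), but this call was lost without WT(ND) replicate 3 (log2 fold change -0.26 ± 0.13, adjusted p = 0.142), and also when a single LID mouse was left out (adjusted p = 0.0598 without WT(LID) replicate 1, adjusted p = 0.0573 without WT(LID) replicate 2, adjusted p = 0.0605 without WT(LID) replicate 3 and adjusted p = 0.0829 without WT(LID) replicate 4). *Glis3* was the member of the list called higher. *Glis3* was at 79.2, 85.8, 81.8 and 45.2 CPM in the ND mice and at 125, 174, 165 and 161 CPM in the LID mice. WT(ND) replicate 4 was the lowest of all, and the lowest LID mouse was above the highest ND mouse (log2 fold change 1.10 ± 0.19, adjusted p = 0.000332). The count covers the whole gene and thus also reads outside exon 5, so it does not check the deletion, and *Glis3* was at 96.1 CPM in *Glis3*-Pax8Cre(ND).

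The TSH receptor gene and several genes of the cAMP pathway were higher. *Tshr* was at 89.5, 128, 156 and 45.7 CPM on ND and 260.3, 344, 321 and 289.7 CPM on LID, with no overlap although the ND mice themselves spread over more than 3-fold (log2 fold change 1.54 ± 0.26, adjusted p = 0.000269). *Pde4d*, a phosphodiesterase that breaks down cAMP, rose from 26.9 ± 5.90 CPM to 70.9 ± 12.5 CPM (log2 fold change 1.40 ± 0.22, adjusted p = 0.000179), while the phosphodiesterase *Pde8b* was at 2.41 ± 0.203 CPM and 2.27 ± 0.232 CPM (log2 fold change -0.08 ± 0.16, adjusted p = 0.716). The cAMP-responsive modulator *Crem* was called higher (log2 fold change 0.85 ± 0.27, adjusted p = 0.0187), a call lost without either of 2 mice (adjusted p = 0.0538 without WT(ND) replicate 3 and adjusted p = 0.0569 without WT(ND) replicate 4). *Creb3l1*, an endoplasmic reticulum factor of the CREB3 family, rose as well (log2 fold change 1.48 ± 0.30, adjusted p = 0.00107). *Adm2* (mm10, chr15:89322720-89324730, plus strand), which encodes the secreted peptide adrenomedullin 2, had the largest log2 fold change of the genes named by size when all 8 mice were used. In the ND mice it stood at 5.84, 7.63, 1.78 and 8.43 CPM, and in the LID mice at 1619, 1115, 1247 and 1414 CPM. The groups did not overlap, and WT(ND) replicate 3 was the lowest of the 8 mice (log2 fold change 7.82 ± 0.40, adjusted p = 8.29e-09). Without that mouse it was at 7.53 ± 0.20, adjusted p = 1.08e-11, below *Dcpp1* and *Dcpp3*, which are described further on. Of 39 members, 17 were called higher and 8 lower.

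Immediate early genes, which many cells switch on within minutes of a stimulus, were higher in part, at low levels. *Atf3* was at 2.21, 2.11, 1.53 and 2.73 CPM on ND and 2.95, 10.5, 10.5 and 12.2 CPM on LID. WT(LID) replicate 1 lay just above the ND mice and the other 3 LID mice well above them (log2 fold change 2.07 ± 0.33, adjusted p = 0.000167). *Nr4a3*, an orphan nuclear receptor, rose from 10.2 ± 4.83 CPM to 31.6 ± 10.1 CPM (log2 fold change 1.63 ± 0.39, adjusted p = 0.00416), again with replicate 1 the lowest LID mouse, and *Fosb* rose from 0.638 ± 0.241 CPM to 2.44 ± 0.848 CPM (log2 fold change 1.91 ± 0.38, adjusted p = 0.000907). *Fos* (log2 fold change 0.37 ± 0.23, adjusted p = 0.206) and *Nr4a1* (log2 fold change 0.66 ± 0.39, adjusted p = 0.191) were not called, and *Myc* fell (log2 fold change -0.55 ± 0.15, adjusted p = 0.00919). Of 23 members, 10 were called higher and 2 lower.

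Since cAMP acts on transcription through the cAMP response element, the RefSeq promoters were searched for its core, TGACG, on both strands from 250 bases before to 50 after the transcription start. It was found in 12 of the 19 immediate early genes that had a promoter in the table (63.2%), in 236 of 952 genes changed upwards (24.8%), and in 29.2% of 12991 promoters of tested genes. Of these promoters 2.93% held the full palindrome TGACGTCA, which contains the core. In the other lists searched the core ran from 0 of 7 endothelial promoters to 18 of 40 DNA replication promoters (45%). It was in 9 of 29 promoters of the TSH receptor and cAMP list (31%), 3 of 10 of iodide transport (30%) and 1 of 9 of hormone synthesis (11.1%). The 250 bases before the start are shown for *Nr4a3* (GRCm38.p6, chr4:48045055-48045304, plus strand) and *Nr4a1* (GRCm38.p6, chr15:101266596-101266845, plus strand), related genes of which the first was called and the second was not. Both held 4 matches, set in capitals on either strand.
Nr4a3: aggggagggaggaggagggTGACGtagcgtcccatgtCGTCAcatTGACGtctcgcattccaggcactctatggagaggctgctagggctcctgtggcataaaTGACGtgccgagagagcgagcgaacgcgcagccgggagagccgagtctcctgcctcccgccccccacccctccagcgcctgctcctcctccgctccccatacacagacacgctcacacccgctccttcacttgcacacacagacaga
Nr4a1: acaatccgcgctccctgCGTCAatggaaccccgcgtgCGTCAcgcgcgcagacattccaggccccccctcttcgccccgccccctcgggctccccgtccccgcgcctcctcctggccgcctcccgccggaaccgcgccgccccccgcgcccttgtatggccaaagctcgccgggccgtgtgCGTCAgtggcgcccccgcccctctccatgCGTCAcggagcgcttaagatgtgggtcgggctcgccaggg

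Cell division showed the most uniform change. All 71 genes of the mitosis list were called higher and 67 were changed, with a median log2 fold change of 3.04 and a range from 0.35 to 3.92, against -0.03 over all genes. *Mki67*, the gene of the Ki-67 antigen of dividing cells, served as an example. The ND mice had 30.6, 29.02, 13.3 and 26.9 CPM and the LID mice 187, 208, 229 and 207 CPM. No LID mouse came within 6-fold of an ND mouse (log2 fold change 3.06 ± 0.63, adjusted p = 0.00152). The mitotic kinase *Cdk1* rose from 6.07 ± 0.437 CPM to 66.7 ± 8.63 CPM (log2 fold change 3.46 ± 0.31, adjusted p = 9.74e-07) and its partner cyclins *Ccnb1* (log2 fold change 3.71 ± 0.50, adjusted p = 6.03e-05) and *Ccnb2* (log2 fold change 3.30 ± 0.44, adjusted p = 4.83e-05) rose with it. *Top2a*, the topoisomerase that untangles chromosomes (log2 fold change 3.09 ± 0.61, adjusted p = 0.00123), *Ube2c*, a ubiquitin carrier of the anaphase-promoting complex (log2 fold change 3.92 ± 0.48, adjusted p = 2.38e-05), and the centrosome kinase *Nek2* (log2 fold change 3.62 ± 0.38, adjusted p = 4.47e-06) were changed to a like extent. In bulk tissue a larger number of dividing cells and more RNA in each of them cannot be told apart.

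Genes of DNA synthesis rose less steeply. Of 48 members, 42 were called higher and 0 lower, with 29 changed and a median of 1.10. *Mcm5*, a subunit of the replicative helicase, went from 15.5 ± 1.01 CPM to 56.1 ± 3.58 CPM (log2 fold change 1.85 ± 0.33, adjusted p = 0.000445). *Rrm2*, the regulated subunit of ribonucleotide reductase, had the largest log2 fold change of the list (log2 fold change 3.16 ± 0.62, adjusted p = 0.00112), followed by the replication checkpoint adaptor *Clspn* (log2 fold change 3.01 ± 0.59, adjusted p = 0.00112) and the polymerase gene *Pole* (log2 fold change 2.45 ± 0.40, adjusted p = 0.000222). Upstream of both lists, cyclin D1 (*Ccnd1*) rose from 98.8 ± 14.5 CPM to 284 ± 18.1 CPM (log2 fold change 1.52 ± 0.11, adjusted p = 9.95e-08) and cyclin E1 (*Ccne1*) from 1.95 ± 0.582 CPM to 9.65 ± 1.06 CPM (log2 fold change 2.30 ± 0.38, adjusted p = 0.000213). The repressor E2F genes *E2f7* (log2 fold change 2.49 ± 0.22, adjusted p = 5.92e-07) and *E2f8* (log2 fold change 2.51 ± 0.53, adjusted p = 0.00166) were also higher. Of 23 G1 regulators 13 were called higher and 3 lower.

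The promoters of the mitosis genes shared 2 short motifs that the list was not built on. The CCAAT box was found in 45 of 59 mitosis promoters (76.3%) against 38.1% of all 12991. The cell cycle homology region TTTGAA was found in 39 of the 59 (66.1%) against 12.5%, and both together in 57.6% against 5.20%. DNA replication promoters held TTTGAA in 12.5%, the share of all promoters, and an E2F motif (TTTCGCGC, TTTGGCGC, TTTCCCGC or TTTGCCGC) in 14 of 40 (35%), against 3.76% of all. The CCAAT box was in 24 of the 40 DNA replication promoters as well (60%), and in 37.9% to 50% of promoters in the other lists searched. All motifs were searched on both strands over the same 300 bases, and a match describes letters, not binding. The 250 bases before the start are given for *Cdk1* (GRCm38.p6, chr10:69352913-69353162, minus strand), *Top2a* (GRCm38.p6, chr11:99024190-99024439, minus strand) and *Ccnb2* (GRCm38.p6, chr9:70421555-70421804, minus strand), with CCAAT and TTTGAA or their complements in capitals, and for *Mcm5* (GRCm38.p6, chr8:75109259-75109508, plus strand), where 2 overlapping E2F motifs are in capitals.
Cdk1: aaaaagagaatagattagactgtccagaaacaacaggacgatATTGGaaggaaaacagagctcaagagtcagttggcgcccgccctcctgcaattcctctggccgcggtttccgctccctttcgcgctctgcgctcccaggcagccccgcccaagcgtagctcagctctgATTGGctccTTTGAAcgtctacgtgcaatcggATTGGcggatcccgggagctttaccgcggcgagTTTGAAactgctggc
Top2a: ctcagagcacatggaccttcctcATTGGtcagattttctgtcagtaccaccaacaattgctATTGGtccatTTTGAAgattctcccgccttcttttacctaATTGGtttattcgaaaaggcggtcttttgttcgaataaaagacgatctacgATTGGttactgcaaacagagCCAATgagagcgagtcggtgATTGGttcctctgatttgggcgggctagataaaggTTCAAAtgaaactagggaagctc
Ccnb2: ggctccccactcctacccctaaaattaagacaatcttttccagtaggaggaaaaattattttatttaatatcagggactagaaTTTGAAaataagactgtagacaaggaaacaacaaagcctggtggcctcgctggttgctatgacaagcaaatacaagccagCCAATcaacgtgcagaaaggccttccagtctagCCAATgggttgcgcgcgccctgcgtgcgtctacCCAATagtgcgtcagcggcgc
Mcm5: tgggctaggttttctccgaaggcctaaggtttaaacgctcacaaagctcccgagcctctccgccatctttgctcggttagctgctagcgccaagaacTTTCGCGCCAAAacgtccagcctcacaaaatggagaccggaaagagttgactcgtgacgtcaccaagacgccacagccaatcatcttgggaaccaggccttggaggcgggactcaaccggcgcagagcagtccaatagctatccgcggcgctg

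Several secreted growth signals were higher too. *Areg* (amphiregulin), a ligand of the EGF receptor, was at 10.1, 10.3, 2.13 and 1.63 CPM on ND and 46.4, 76.7, 66.8 and 81.5 CPM on LID. All LID mice exceeded all ND mice (log2 fold change 3.51 ± 0.59, adjusted p = 0.00034), and without the 3 WT libraries with the most thymocyte RNA the log2 fold change was 5.20. The related ligand *Ereg* rose from 0.356 ± 0.222 CPM to 3.66 ± 1.08 CPM (log2 fold change 3.38 ± 0.50, adjusted p = 7.97e-05, and 4.25 without those 3 libraries). Of 27 genes of this list 11 were called higher and 5 lower. Of the feedback genes of the MAPK pathway, *Dusp1* (log2 fold change 2.11 ± 0.26, adjusted p = 2.03e-05) and *Spry4* (log2 fold change 1.36 ± 0.23, adjusted p = 0.000268) rose and *Dusp6* was not called (log2 fold change 0.25 ± 0.16, adjusted p = 0.224, and called without WT(ND) replicate 3 at 0.41 ± 0.15, adjusted p = 0.0447). The insulin receptor substrate *Irs1* fell from 24.03 ± 3.87 CPM to 9.68 ± 0.911 CPM (log2 fold change -1.31 ± 0.16, adjusted p = 1.51e-05). *Igf1* was at 57.4, 66.3, 181 and 50.4 CPM on ND and 94.7, 74.3, 86.5 and 86.7 CPM on LID, where WT(ND) replicate 3 alone was far above the rest. Over all 8 mice *Igf1* was not called (log2 fold change -0.05 ± 0.32, adjusted p = 0.912), and without that mouse it was called higher (0.57 ± 0.16, adjusted p = 0.0113).

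Markers of blood vessels rose almost as a whole. Of 15 endothelial markers 14 were called higher and 12 changed (median log2 fold change 1.29), and their summed level was 901 to 1112 CPM in the ND mice and 2735 to 2985 CPM in the LID mice. *Eng* (endoglin), a TGF-beta co-receptor of endothelial cells, was an example. *Eng* was at 101, 97.6, 119 and 119 CPM in the ND mice and at 575, 543, 584 and 583 CPM in the LID mice. The spread within each diet was small beside the gap (log2 fold change 2.39 ± 0.14, adjusted p = 9.41e-09). *Cdh5* (VE-cadherin), the junction protein of endothelium, rose from 69.98 ± 5.60 CPM to 256 ± 25.7 CPM (log2 fold change 1.87 ± 0.16, adjusted p = 3.37e-07), and *Kdr*, the main VEGF receptor, from 187 ± 24.1 CPM to 386 ± 16.3 CPM (log2 fold change 1.05 ± 0.14, adjusted p = 2.59e-05). More endothelial cells and more RNA per cell cannot be told apart.

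Angiogenic peptides and their receptors were among the genes that rose. *Apln* (apelin), a peptide of sprouting vessels, rose from 7.05 ± 1.501 CPM to 37.7 ± 13.4 CPM (log2 fold change 2.42 ± 0.30, adjusted p = 2.30e-05), and *Angpt2*, which loosens vessel walls, from 5.68 ± 0.662 CPM to 16.9 ± 2.03 CPM (log2 fold change 1.57 ± 0.18, adjusted p = 7.69e-06). *Ramp3*, a subunit that gives the calcitonin receptor-like receptor its affinity for adrenomedullins, rose from 11.5 ± 2.11 CPM to 50.9 ± 4.06 CPM (log2 fold change 2.15 ± 0.18, adjusted p = 4.21e-07), beside the rise of the ligand gene *Adm2* given above. *Notch4* rose too (log2 fold change 1.64 ± 0.13, adjusted p = 2.43e-07). *Vegfa* was abundant on both diets, at 1133 ± 121 CPM and 1438 ± 156 CPM (log2 fold change 0.34 ± 0.11, adjusted p = 0.0209). Its groups overlapped, and its call was lost under library-size scaling (adjusted p = 0.23) and when any 1 of these 4 mice was left out (adjusted p = 0.0742 without WT(LID) replicate 1, adjusted p = 0.0541 without WT(LID) replicate 2, adjusted p = 0.0609 without WT(ND) replicate 2 and adjusted p = 0.0707 without WT(ND) replicate 4). *Esm1*, a marker of endothelial tip cells, was called lower (log2 fold change -0.62 ± 0.18, adjusted p = 0.0119), with overlapping groups. Of 23 genes in this list 13 were called higher and 2 lower. Mural cell markers went with the endothelium, with 7 of 11 called higher and 0 lower, among them *Acta2* (log2 fold change 2.51 ± 0.24, adjusted p = 1.90e-06), *Tagln* (log2 fold change 2.31 ± 0.15, adjusted p = 3.17e-08) and *Cspg4* (log2 fold change 1.82 ± 0.22, adjusted p = 1.26e-05).

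Many extracellular matrix genes were higher. Of 43 collagen genes 22 were called higher and 7 lower. *Col4a1*, a main chain of the basement membrane, was at 541, 482, 594 and 552 CPM on ND and 2148, 2545, 2784 and 2474 CPM on LID, with every LID mouse over 3 times every ND mouse (log2 fold change 2.20 ± 0.18, adjusted p = 2.48e-07). The fibrillar collagens *Col1a1* (log2 fold change 1.82 ± 0.23, adjusted p = 1.79e-05), *Col3a1* (log2 fold change 1.51 ± 0.19, adjusted p = 2.25e-05) and *Col5a1* (log2 fold change 2.10 ± 0.10, adjusted p = 2.55e-09) rose, as did *Col18a1*, whose cleavage yields endostatin (log2 fold change 1.86 ± 0.20, adjusted p = 3.80e-06). Other basement membrane chains were lower, namely *Col4a3* (log2 fold change -1.57 ± 0.19, adjusted p = 1.61e-05) and *Col4a4* (log2 fold change -1.20 ± 0.22, adjusted p = 0.000609), both named after their values were seen. Of 10 fibroblast markers 4 were called higher, 3 of them collagens, and 3 were called lower, among them *Pdgfra*, a platelet-derived growth factor receptor (log2 fold change -0.86 ± 0.21, adjusted p = 0.00379, and adjusted p = 0.0933 without the 3 WT libraries with the most thymocyte RNA).

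Receptors and linkers of the matrix were higher as well. Of 40 laminins, nidogens, integrins and related glycoproteins 25 were called higher and 4 lower (median 0.82). *Itga2*, the alpha chain of a collagen receptor, rose from 0.683 ± 0.0568 CPM to 10.98 ± 2.40 CPM (log2 fold change 4.0 ± 0.26, adjusted p = 3.05e-08), the largest log2 fold change of that list. *Itgb3* (log2 fold change 1.95 ± 0.24, adjusted p = 1.28e-05), *Nid2* (log2 fold change 1.97 ± 0.20, adjusted p = 2.98e-06), fibronectin (*Fn1*, log2 fold change 1.56 ± 0.15, adjusted p = 1.47e-06) and *Sparc* (log2 fold change 1.39 ± 0.14, adjusted p = 2.58e-06) rose as well. Among matrix enzymes and their inhibitors, 20 of 33 were called higher and 3 lower. The receptor of urokinase, *Plaur*, had the largest log2 fold change named from that list, at 1.53, 2.38, 1.89 and 2.41 CPM on ND and 19.95, 19.6, 26.3 and 23.3 CPM on LID, without overlap (log2 fold change 3.44 ± 0.20, adjusted p = 1.07e-08). The collagen crosslinking enzyme *Lox* (log2 fold change 2.06 ± 0.29, adjusted p = 5.63e-05), the protease inhibitor *Timp1* (log2 fold change 1.70 ± 0.16, adjusted p = 1.06e-06) and the aggrecanase *Adamts4* (log2 fold change 2.80 ± 0.51, adjusted p = 0.000524) were higher too.

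The machinery that makes and digests thyroglobulin also rose, by smaller factors. In the endoplasmic reticulum list 14 of 35 genes were called higher and 2 lower, but only 2 were changed upwards. These were the disulfide isomerase *Pdia6*, from 640.4 ± 78.8 CPM to 1446 ± 247 CPM (log2 fold change 1.18 ± 0.22, adjusted p = 0.000637), and the chaperone *Calr*, from 1584 ± 151 CPM to 3184 ± 412 CPM (log2 fold change 1.01 ± 0.24, adjusted p = 0.00341). The chaperone *Hspa5* (BiP), at 1415 ± 498 CPM and 1899 ± 399 CPM (log2 fold change 0.42 ± 0.27, adjusted p = 0.222), and the stress factor *Xbp1* (log2 fold change -0.31 ± 0.14, adjusted p = 0.0868) were not called. *Hspa5* was called without the 3 WT libraries with the most thymocyte RNA (log2 fold change 0.95, adjusted p = 0.0416), and *Xbp1* was called lower under library-size scaling (log2 fold change -0.47, adjusted p = 0.0111). Of 32 lysosomal and uptake genes 18 were called higher and 1 lower (56.2% higher against 20.9% of all genes). The TG-cleaving cathepsins *Ctsb* (log2 fold change 0.85 ± 0.15, adjusted p = 0.000319), *Ctsd* (log2 fold change 0.78 ± 0.13, adjusted p = 0.000154) and *Ctsl* (log2 fold change 0.62 ± 0.12, adjusted p = 0.000541) rose. The cholesterol carrier *Npc2* (log2 fold change 1.99 ± 0.19, adjusted p = 1.28e-06) rose too, as did *Hexa*, which degrades a ganglioside (log2 fold change 1.48 ± 0.13, adjusted p = 6.96e-07). *Psap*, the precursor of the saposins that help such enzymes, gained the third most CPM of all genes called, from 1545 ± 121 CPM to 4804 ± 232 CPM (log2 fold change 1.64 ± 0.14, adjusted p = 4.17e-07). *Lrp2* (megalin), a TG receptor, was not called (log2 fold change 0.37 ± 0.17, adjusted p = 0.087), except without WT(ND) replicate 4, where its log2 fold change was 0.50 (adjusted p = 0.0319). Scaling by library size, or leaving out the 3 WT libraries with the most thymocyte RNA, left 12 lysosomal genes called higher.

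Lipid genes moved in both directions. Of 32 listed genes of cholesterol and fatty acid synthesis 13 were called higher and 8 lower, and both directions held genes of cholesterol synthesis. All 4 genes of the list that fell by over 2-fold act in fatty acid synthesis, among them *Fasn*, at 1361, 2821, 1412 and 3057 CPM on ND and 852, 538, 535 and 635 CPM on LID (log2 fold change -1.76 ± 0.28, adjusted p = 0.000166), and *Scd1*, at 3377, 8837, 3928 and 7244 CPM on ND and 2216, 1040.1, 1363 and 1723 CPM on LID (log2 fold change -1.88 ± 0.31, adjusted p = 0.000193). Their ND values differed among mice by over 2-fold, and WT(ND) replicates 2 and 4 were high for both. The insulin-responsive glucose transporter *Slc2a4* fell (log2 fold change -2.04 ± 0.37, adjusted p = 0.000566) while *Slc2a1* rose (log2 fold change 0.80 ± 0.10, adjusted p = 1.83e-05), and in the glycolysis list 4 of 37 were called higher and 13 lower. White fat markers were lower too, 8 of 10 of them, with a summed level of 1123 to 2116 CPM on ND and 652 to 1003 CPM on LID. Without the 3 WT libraries with the most thymocyte RNA 2 of these markers were called lower. The part of fat tissue in these falls was not tested.

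Stress genes showed no common direction. *Gdf15*, a secreted stress hormone, was at 7.32, 9.05, 7.54 and 10.2 CPM on ND and 67.8, 95.6, 106 and 168 CPM on LID, without overlap (log2 fold change 3.68 ± 0.30, adjusted p = 4.55e-07), and the mitochondrial folate enzymes *Aldh1l2* (log2 fold change 1.68 ± 0.21, adjusted p = 1.92e-05) and *Mthfd2* (log2 fold change 1.67 ± 0.26, adjusted p = 0.000135) rose. Other targets of ATF4, namely *Asns* (log2 fold change -0.17 ± 0.13, adjusted p = 0.325), *Trib3* (log2 fold change -0.01 ± 0.13, adjusted p = 0.963) and *Ddit3* (log2 fold change -0.11 ± 0.22, adjusted p = 0.728), were not called. The median of these 32 genes was 0.04. Of 35 antioxidant genes 12 were called higher and 8 lower. Sulfiredoxin (*Srxn1*, log2 fold change 1.75 ± 0.17, adjusted p = 1.62e-06), *Gpx7* (log2 fold change 1.82 ± 0.17, adjusted p = 9.02e-07) and heme oxygenase (*Hmox1*, log2 fold change 1.07 ± 0.10, adjusted p = 1.46e-06) rose, *Gpx3*, a peroxidase that the thyroid secretes, fell (log2 fold change -0.81 ± 0.20, adjusted p = 0.00466), and *Nqo1* was not called (log2 fold change 0.49 ± 0.22, adjusted p = 0.0825, but 0.0434 without WT(ND) replicate 1). Ribosome biogenesis genes, examined because growing cells use more of them, were centred on 0.01 (4 of 44 higher, 7 lower). *Fbl* (log2 fold change 0.01 ± 0.15, adjusted p = 0.96) and *Ncl* (log2 fold change 0.21 ± 0.15, adjusted p = 0.29) were not called.

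Immune genes moved in opposite directions. Monocyte-attracting chemokines rose, *Ccl2* from 0.323 ± 0.0952 CPM to 9.01 ± 2.51 CPM (log2 fold change 4.82 ± 0.37, adjusted p = 1.42e-07) and *Ccl7* from 0.322 ± 0.0718 CPM to 4.81 ± 1.17 CPM (log2 fold change 3.91 ± 0.28, adjusted p = 6.37e-08), and the mucosal chemokine *Cxcl17* was at 0.0981, 0.0587, 0.141 and 0.164 CPM on ND and 3.75, 4.46, 3.58 and 5.32 CPM on LID (log2 fold change 5.11 ± 0.38, adjusted p = 1.11e-07). Of 33 chemokines and cytokines 11 were called higher and 11 lower. Of 36 genes of antigen presentation and the interferon response 24 were called lower (66.7% against 20.8% of all genes) and 2 higher. The invariant chain gene *Cd74* was at 491, 570.5, 586 and 526 CPM on ND and 209, 263, 316 and 233 CPM on LID, without overlap (log2 fold change -1.09 ± 0.14, adjusted p = 2.12e-05). The interferon-induced *Ifit1* (log2 fold change -1.29 ± 0.31, adjusted p = 0.00354) and *Ifit3* (log2 fold change -1.37 ± 0.33, adjusted p = 0.00378) fell, and so did *Cxcl10* (log2 fold change -1.81 ± 0.45, adjusted p = 0.0046), with overlapping groups and an adjusted p of 0.10 without the 3 WT libraries with the most thymocyte RNA. Macrophage markers were divided, 5 of 12 being higher and 1 lower. Those higher included *Lyve1* (log2 fold change 1.84 ± 0.28, adjusted p = 0.000124), *Mrc1* (log2 fold change 1.40 ± 0.16, adjusted p = 9.21e-06) and *Cd163* (log2 fold change 1.11 ± 0.21, adjusted p = 0.00065), which mark tissue-resident macrophages, and *Lyve1* also marks lymphatic endothelium.

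Local signals and junction genes added single large changes. Called higher and lower were 4 and 2 of 14 IGF genes, 14 and 8 of 39 TGF-beta, BMP and activin genes, 11 and 6 of 38 Wnt genes, and 9 and 6 of 27 junction genes. *Bmp6* rose (log2 fold change 2.003 ± 0.19, adjusted p = 1.28e-06), as did the activin subunit *Inhba* (log2 fold change 1.88 ± 0.25, adjusted p = 3.04e-05) and *Tgfb1* (log2 fold change 0.92 ± 0.13, adjusted p = 3.72e-05), and *Gdf10* fell (log2 fold change -1.70 ± 0.12, adjusted p = 7.04e-08). *Wnt4* was at 125, 116, 105 and 108 CPM on ND and 362, 329, 339 and 400.0 CPM on LID (log2 fold change 1.65 ± 0.10, adjusted p = 1.27e-08), while *Wnt7b* (log2 fold change -2.09 ± 0.31, adjusted p = 8.11e-05) and the feedback gene *Axin2* (log2 fold change -0.79 ± 0.20, adjusted p = 0.00489) fell. *Cdh13* (T-cadherin) rose from 11.04 ± 0.711 CPM to 106 ± 6.89 CPM (log2 fold change 3.26 ± 0.13, adjusted p = 5.10e-10) and the epithelial *Cdh16* from 629 ± 72.9 CPM to 1644 ± 40.1 CPM (log2 fold change 1.38 ± 0.17, adjusted p = 1.26e-05). The tight junction gene *Cldn4* fell from 109 ± 8.68 CPM to 29.4 ± 8.94 CPM (log2 fold change -1.90 ± 0.22, adjusted p = 1.11e-05). Of 40 primary cilium genes 15 were called lower and 2 higher, and *Bbs10* (log2 fold change -1.17 ± 0.16, adjusted p = 4.01e-05) and *Bbs12* (log2 fold change -0.99 ± 0.15, adjusted p = 7.00e-05), parts of a chaperonin complex for the BBSome, were among them.

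Ranked by size, the 12 largest increases, taken from changed genes whose groups did not overlap and whose WT mean reached 5 CPM, were *Adm2* and 11 genes that were on none of the hormone lists. *Dcpp1* and *Dcpp3*, demilune cell and parotid proteins of near-identical sequence whose reads cannot be assigned with certainty, went from under 2 CPM in 3 of the ND mice to at least 1627 CPM in every LID mouse. For *Dcpp3* the values were 1.39, 1.80, 75.2 and 1.93 CPM on ND and 3162, 4744, 4977 and 4371 CPM on LID. WT(ND) replicate 3 alone set the ND mean, and the log2 fold change was 7.75 ± 1.33 with it (adjusted p = 0.000446) and 11.29 ± 0.42, adjusted p = 2.54e-10 without it. *Dcpp1* went from 7.79 ± 1.33 to 11.41 ± 0.41, adjusted p = 2.54e-10 in the same way. *Dnah5*, a dynein of motile cilia, was at 0.266, 0.337, 0.141 and 0.110 CPM on ND and 35.3, 52.7, 33.2 and 32.97 CPM on LID (log2 fold change 7.61 ± 0.63, adjusted p = 6.37e-07). Of the 10 airway and ciliated cell markers 3 were called higher and 0 lower. The 3 were ciliated cell genes, namely *Dnah5*, *Tekt1* of the axoneme (log2 fold change 1.75 ± 0.32, adjusted p = 0.000545) and *Foxj1*, the regulator of motile cilia, which was at 0.827, 0.851, 0.749 and 1.02 CPM on ND and 2.48, 1.88, 2.46 and 2.94 CPM on LID (log2 fold change 1.49 ± 0.45, adjusted p = 0.0146, and adjusted p = 0.128 without the 3 WT libraries with the most thymocyte RNA). The fourth ciliated cell gene, *Rsph1*, and the 6 airway secretory genes of the list were not called. *Mybpc3*, a cardiac myosin-binding protein, was at 0.0420, 0.103, 0.0283 and 0.479 CPM on ND and 28.3, 13.7, 11.9 and 28.9 CPM on LID (log2 fold change 6.71 ± 0.88, adjusted p = 3.97e-05), and its log2 fold change was 8.46 without WT(ND) replicate 4. In WT(ND) replicates 1 and 3 it lay near or below 3 counts, which are 0.0405 and 0.044 CPM there, so the size of its rise is uncertain. The coagulation factor gene *F10* (log2 fold change 5.52 ± 0.29, adjusted p = 5.29e-09), the bradykinin receptor *Bdkrb2* (log2 fold change 4.98 ± 0.45, adjusted p = 1.56e-06), the protease genes *Adamts8* (log2 fold change 4.74 ± 0.31, adjusted p = 3.54e-08) and *Corin* (log2 fold change 4.68 ± 0.51, adjusted p = 6.17e-06), and *Dapl1* (log2 fold change 4.60 ± 0.32, adjusted p = 9.51e-08) were the other coding genes, beside the less studied *1700018A04Rik* (log2 fold change 4.53 ± 0.58, adjusted p = 2.87e-05) and *Arhgap33os* (log2 fold change 4.04 ± 0.61, adjusted p = 0.000128).

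**Figure D3:**
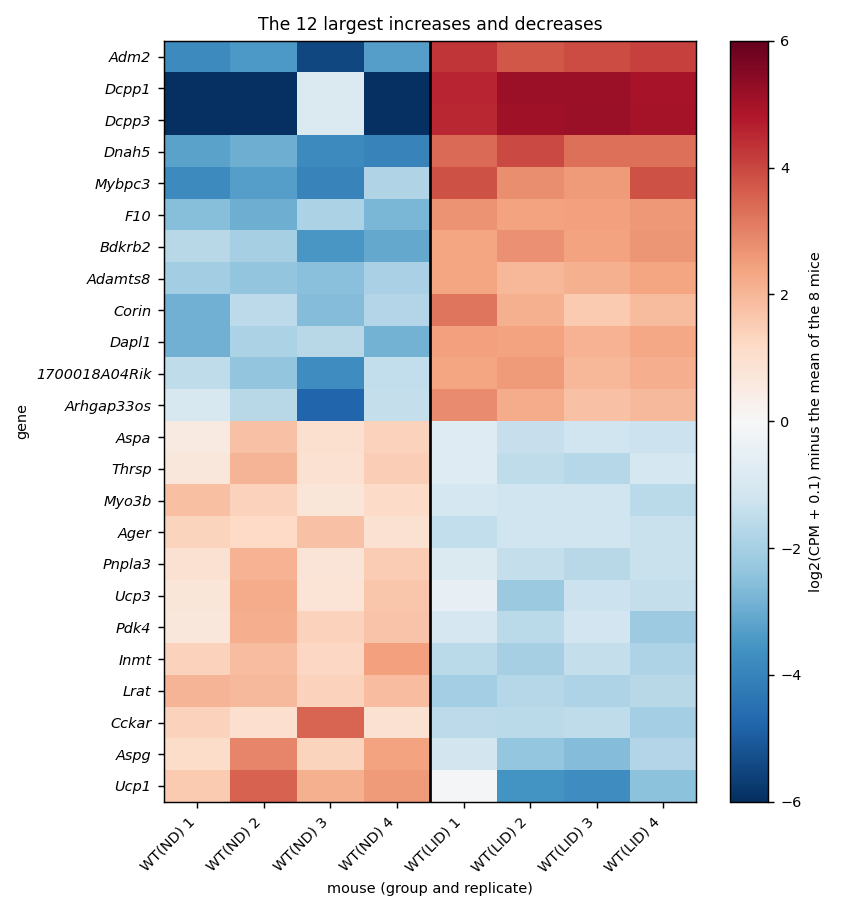
The 12 largest increases and 12 largest decreases in WT(LID), one row per gene and one column per mouse. Colour gives log2(CPM + 0.1) minus the mean of the 8 mice, from blue (low) to red (high). *Dcpp1* and *Dcpp3* of WT(ND) replicate 3 are paler than those of the other ND mice.

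The 12 largest decreases divided into genes of fat and fuel use and others. *Lrat* (mm10, chr3:82892582-82903974, minus strand), which stores vitamin A as retinyl ester, was at 21.8, 20.2, 13.8 and 19.02 CPM on ND and 1.21, 1.54, 1.38 and 1.57 CPM on LID. No LID mouse reached 2 CPM and no ND mouse fell below 13 CPM (log2 fold change -3.71 ± 0.17, adjusted p = 2.55e-09). The span of *Lrat* overlaps that of *Rbm46os*, and whether their exons overlap was not checked. *Ager*, a multiligand receptor, fell from 932 ± 231 CPM to 152 ± 15.3 CPM (log2 fold change -2.62 ± 0.22, adjusted p = 4.21e-07), the most abundant gene of these 12. *Cckar*, a cholecystokinin receptor, was at 20.3, 15.4, 87.2 and 14.7 CPM on ND and 2.54, 2.42, 2.59 and 1.78 CPM on LID, and fell by 3.88 on the log2 scale (adjusted p = 7.14e-05), or by 2.84 without WT(ND) replicate 3. *Inmt* (log2 fold change -3.66 ± 0.51, adjusted p = 6.27e-05), *Myo3b* (log2 fold change -2.61 ± 0.31, adjusted p = 1.30e-05), *Aspg* (log2 fold change -4.04 ± 0.53, adjusted p = 3.78e-05) and *Aspa* (log2 fold change -2.46 ± 0.28, adjusted p = 7.43e-06) fell too. The fat and fuel genes were *Ucp1*, the uncoupling protein of brown fat (log2 fold change -4.30 ± 0.88, adjusted p = 0.00168), *Ucp3* (log2 fold change -2.78 ± 0.45, adjusted p = 0.000191), *Pdk4* (log2 fold change -3.01 ± 0.46, adjusted p = 0.000148), *Pnpla3* (log2 fold change -2.74 ± 0.32, adjusted p = 9.57e-06) and *Thrsp* (log2 fold change -2.59 ± 0.34, adjusted p = 3.59e-05). *Ucp1* was at 123, 483, 185 and 247 CPM on ND and 38.4, 3.37, 3.07 and 7.56 CPM on LID, and without WT(LID) replicate 1 its log2 fold change was -5.79. Brown fat markers summed to 289 to 850 CPM on ND and 104 to 180 CPM on LID, with 6 of 9 called lower. The part of brown fat next to the gland in these values was not tested.

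Markers of other cells in and around the gland also differed by diet. All 5 parathyroid markers were called lower, *Pth* at 3299.5, 5269.7, 5803 and 4759.6 CPM on ND and 906, 783, 1553 and 1413 CPM on LID (log2 fold change -2.04 ± 0.52, adjusted p = 0.00577) and *Gcm2* at 35.8 ± 5.87 CPM and 10.96 ± 3.79 CPM (log2 fold change -1.71 ± 0.58, adjusted p = 0.0285). The call of *Gcm2* was lost when any 1 of these 6 mice was left out (adjusted p = 0.0758 without WT(LID) replicate 1, adjusted p = 0.0737 without WT(LID) replicate 2, adjusted p = 0.0625 without WT(LID) replicate 4, adjusted p = 0.0504 without WT(ND) replicate 2, adjusted p = 0.0532 without WT(ND) replicate 3 and adjusted p = 0.0632 without WT(ND) replicate 4). *Pth* and *Chga*, the latter at 4809 ± 1325 CPM and 1296 ± 601 CPM (log2 fold change -1.89 ± 0.56, adjusted p = 0.0147), were among the 5 genes that lost the most CPM. Of 8 markers of C cells, which make calcitonin, 6 were lower and 1 was higher, with *Calca* falling from 3213 ± 630.5 CPM to 1454 ± 219 CPM (log2 fold change -1.14 ± 0.23, adjusted p = 0.00101). Thus the summed level fell from 3075–4930 to 1627–2204 CPM for C cells and from 6890–12580 to 1676–3736 CPM for parathyroid. A smaller share of these cells and less RNA in each of them cannot be told apart. The thymic epithelial factor *Foxn1* was called lower (log2 fold change -2.78 ± 0.83, adjusted p = 0.0148, and adjusted p = 0.0602 without the 3 WT libraries with the most thymocyte RNA). The summed thymic epithelium markers were at 65.8, 62.1, 6.82 and 123.6 CPM on ND and 3.42, 3.59, 34.3 and 2.64 CPM on LID. WT(ND) replicate 4, the highest, was not among the libraries left out. Of the 12 thymocyte markers 1 was called lower, and of the 12 skeletal muscle markers 0 were called.

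**Figure D4:**
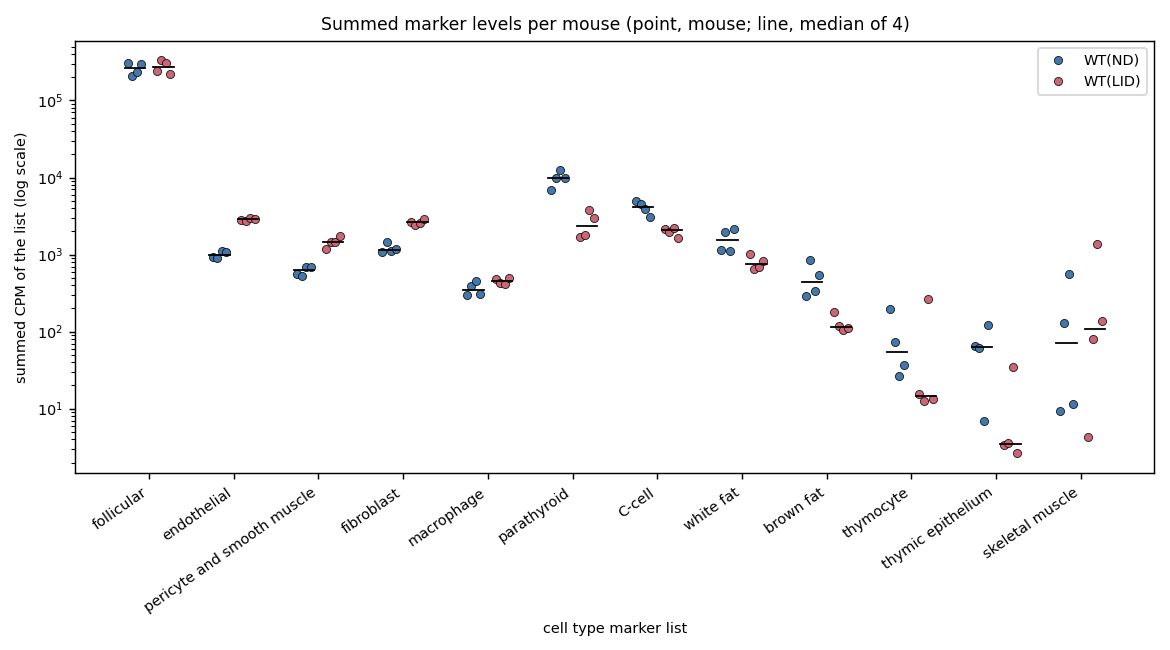
Summed CPM of 12 cell type marker lists in each WT mouse, on a log axis, with the median of each group as a line. Endothelial, mural and fibroblast sums of the LID mice lie above all ND mice, parathyroid, C-cell and white fat sums lie below, and thymocyte and muscle sums vary from mouse to mouse on both diets. Of the fibroblast markers 4 were called higher, mostly collagens, and 3 lower.

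Where the WT response differed from that of *Glis3*-Pax8Cre mice was tested by the interaction of genotype and diet. It was called for 1969 of the 16630 genes (11.8%). Without WT(ND) replicate 3 the interaction was called for 1903 genes, of which 1674 were among the 1969. Among the genes changed in WT it was called for 635 of the 1277 higher and for 171 of the 798 lower. These genes were picked by the WT difference that also enters the interaction, so their shares cannot be set against the 11.8%. Genes ranked by the interaction had to be changed in WT as well. Of the genes ranked by it *Adm2* had the largest difference, a WT log2 fold change of 7.82 ± 0.40 against 0.25 in *Glis3*-Pax8Cre (interaction 7.57 ± 0.53, adjusted p = 1.41e-06). With all mice the interaction was not called for *Dcpp1* (interaction 3.46 ± 1.44, adjusted p = 0.145) or *Dcpp3* (interaction 3.65 ± 1.44, adjusted p = 0.124). Without WT(ND) replicate 3 it was called for both, at 7.093 for *Dcpp1* and 7.201 for *Dcpp3* (adjusted p = 8.34e-08 for each). *Adm2* was then at 7.291. *Slc5a5* (interaction 3.22 ± 0.33, adjusted p = 1.86e-05), *Mybpc3* (interaction 6.72 ± 1.32, adjusted p = 0.00459), *Adamts8* (interaction 3.96 ± 0.41, adjusted p = 1.86e-05), and *Itga2* (interaction 3.78 ± 0.34, adjusted p = 6.22e-06) also rose more in WT. *Car15*, a carbonic anhydrase, rose in WT and fell in *Glis3*-Pax8Cre, with log2 fold changes of 3.19 and -0.68 (interaction 3.88 ± 0.31, adjusted p = 2.52e-06). The interaction of *Mybpc3* was lost without *Glis3*-Pax8Cre(ND) replicate 4 (adjusted p = 0.0503).

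By gene list, with no test between lists, the interaction was called for 14 of 15 endothelial markers, 13 of 23 VEGF and angiopoietin genes and 15 of 43 collagens, for 9 of 71 mitosis genes, 3 of 48 DNA replication genes and 0 of 36 antigen presentation and interferon genes. Over all genes tested the share was 11.8%, and the share of the mitosis genes lay close to it. The counts for dividing cells depended on *Glis3*-Pax8Cre(ND) replicate 4, whose summed thymocyte markers were at 3098 CPM against 24.2 to 27.3 CPM in the other 3 mice of its group. Without it the interaction was called for 25 mitosis genes (median 0.59 instead of 1.37 on the log2 scale), 11 DNA replication genes and 21 collagens, and still for 14 endothelial markers and 13 VEGF and angiopoietin genes. Over all genes the count was then 2228, of which 1769 were among the 1969. *Eng* rose by 2.39 in WT and was at -0.03 in *Glis3*-Pax8Cre on the log2 scale (interaction 2.42 ± 0.18, adjusted p = 1.71e-06), and *Cdh5* (interaction 1.999 ± 0.22, adjusted p = 2.78e-05) and *Kdr* (interaction 1.005 ± 0.19, adjusted p = 0.00315) were alike in this. For *Mki67* the interaction was not called (interaction 1.73 ± 0.82, adjusted p = 0.2), nor for *Ccnb1* (interaction 1.34 ± 0.65, adjusted p = 0.204), *Tshr* (interaction 0.20 ± 0.36, adjusted p = 0.781), *Glis3* (interaction 0.32 ± 0.27, adjusted p = 0.49) or *Tg* (interaction 0.46 ± 0.33, adjusted p = 0.397). *Mki67* was at 25.3, 38.6, 35.1 and 248 CPM in the *Glis3*-Pax8Cre(ND) mice, and without replicate 4 of that group its interaction was 0.36 ± 0.32 (adjusted p = 0.515) and that of *Ccnb1* 0.35 ± 0.27 (adjusted p = 0.44). By contrast, *Ccnd1* rose more in WT (interaction 1.05 ± 0.16, adjusted p = 0.000433). A missed threshold does not show that the effects were equal. *Sod3* rose in both genotypes and more in WT (interaction 2.08 ± 0.24, adjusted p = 5.59e-05), as did *Dio1* (interaction 1.20 ± 0.16, adjusted p = 0.000163) and *Col4a1* (interaction 1.70 ± 0.24, adjusted p = 0.000314), and *Cdh16* was called in WT and not in *Glis3*-Pax8Cre (interaction 1.63 ± 0.23, adjusted p = 0.000327).

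In the other direction, *Lrat* fell in WT and was at a log2 fold change of 0.21 in *Glis3*-Pax8Cre (interaction -3.92 ± 0.23, adjusted p = 1.48e-07), and *Ager* behaved likewise (interaction -2.50 ± 0.30, adjusted p = 7.84e-05). *Slc24a3*, a sodium/calcium exchanger, fell from 42.5 ± 16.3 CPM to 11.3 ± 0.831 CPM in WT and rose in *Glis3*-Pax8Cre (interaction -3.05 ± 0.35, adjusted p = 6.43e-05), and *Acaa1b*, a peroxisomal thiolase, did the same (interaction -2.75 ± 0.45, adjusted p = 0.000921, with a WT effect of log2 fold change -1.16 ± 0.31, adjusted p = 0.00765 and an adjusted p of 0.0846 for it without the 3 WT libraries with the most thymocyte RNA). *Slc1a1*, a glutamate transporter, rose in both genotypes but by 3.51 in *Glis3*-Pax8Cre against 1.001 in WT (interaction -2.51 ± 0.32, adjusted p = 0.000126).

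**Figure D5:**
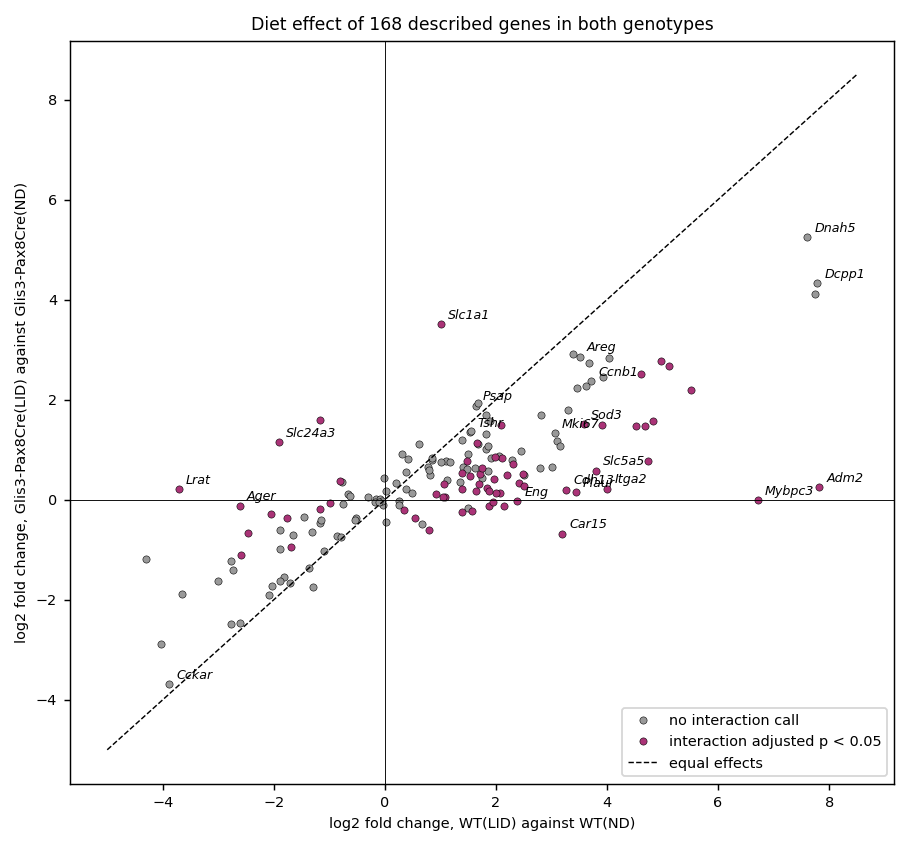
Log2 fold change of LID against ND in WT (horizontal) and in *Glis3*-Pax8Cre (vertical) for the genes described, with an interaction call in purple and none in grey. Calls are those of the fit over all 16 mice. The dashed line marks equal effects, and most purple points on the right lie below it, among them *Adm2* at 7.82 and 0.25. The genes were named in part by the size of their WT change.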

How the data were processed

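After dropping pairs of average base quality up to 20, the authors aligned reads by STAR 2.5 (genome build mm10) and counted pairs per RefSeq gene without regard to strand (featureCounts 1.5.0-p1), and the deposited table holds these raw counts, not normalized, for 25611 entries in 16 mice. The fit used edgeR 4.0.16 under R 4.3.3. The filter filterByExpr on the 4 groups left 16630 genes, libraries were scaled by TMM, and 1 mean per group was fitted over all 16 mice by the robust quasi-likelihood test. P-values were adjusted by Benjamini-Hochberg over all genes tested. Changed means an adjusted p under 0.01 and over 2-fold, the study's thresholds, and called an adjusted p under 0.05. The spans from gene start to gene end overlap for *Tg* with *Sla*, *Glis3* with *D930032P07Rik*, *Ccnd1* with *Oraov1*, *Eng* with *Fpgs*, *Angpt2* with *Mcph1*, *Col4a1* with *Col4a2*, *Tagln* with *Pcsk7*, *Nid2* with *Rtraf*, *Timp1* with *Syn1*, *Pdia6* with *Atp6v1c2*, *Ctsb* with *Fdft1*, *Ddit3* with *Mars*, *Cxcl10* with *Art3* and *Bmp6* with *Txndc5*. Whether the exons of these pairs overlap was not checked, so an effect on their counts is possible but not shown. The interaction contrast was taken from the same fit. The SE is the log2 fold change divided by the square root of its F value. Nothing says that a sample pools animals, and all 12 pairs of WT mice of 1 diet differed by far more than counting noise.

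The gene and marker lists were chosen with earlier results of these data known. Genes were named by rule: the 12 largest changes each way (changed, no overlap, WT mean of at least 5 CPM), the 5 largest gains and losses in CPM, key genes of each list, up to 3 called members per list with the largest change and a WT mean of at least 1 CPM, the 5 largest interactions each way, and the markers. Values of some genes that these rules name are not reported here. Promoters came from a RefSeq table of GRCm38.p6 that held 12991 of the genes tested, read from 250 bases before to 50 after the start. Alternatives used DESeq2 1.42.0 and the settings named in the closing section. The fitting was tested on simulated data.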

Additional observations from a re-analysis of the deposited data

Results flagged for a closer look

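For the 168 genes described, the 4 mice of each diet were searched for a single mouse that lay far from the other 3, by Dixon's criterion at the 95% level. It was met in 29 of 336 groups, where chance alone gives about 1 in 20 groups. In WT(ND) replicate 3 this held for *Pax8* (996 CPM, others 374 to 397 CPM), *Duox1* (22.6 CPM, others 4.56 to 7.41 CPM), *Duoxa1* (22.4 CPM, others 6.98 to 9.46 CPM), *Pole* (3.55 CPM, others 3.96 to 4.03 CPM), *Igf1* (181 CPM, others 50.4 to 66.3 CPM), *Ncl* (217 CPM, others 346 to 358 CPM), *Dcpp3* (75.2 CPM, others 1.39 to 1.93 CPM), *Dcpp1* (36.8 CPM, others 0.675 to 0.868 CPM) and *Cckar* (87.2 CPM, others 14.7 to 20.3 CPM). WT(LID) replicate 1 stood apart for *Hhex* (151 CPM, others 174 to 177 CPM), *Ereg* (2.06 CPM, others 3.99 to 4.36 CPM), *Itga2* (7.42 CPM, others 11.7 to 12.6 CPM), *Asns* (28.4 CPM, others 22.5 to 23.1 CPM), *Ifit1* (3.28 CPM, others 3.92 to 3.96 CPM), *Bbs10* (2.59 CPM, others 1.97 to 2.06 CPM), *Bbs12* (5.57 CPM, others 4.33 to 4.51 CPM) and *Ucp1* (38.4 CPM, others 3.07 to 7.56 CPM). For WT(ND) replicate 4 the genes were *Glis3* (45.2 CPM, others 79.2 to 85.8 CPM), *Ccnd1* (120.3 CPM, others 89.96 to 94.1 CPM), *Ccne1* (2.82 CPM, others 1.60 to 1.79 CPM) and *Mybpc3* (0.479 CPM, others 0.0283 to 0.103 CPM). The mouse WT(LID) replicate 3 was the distant one for *Fn1* (325 CPM, others 366 to 368 CPM), *Fbl* (20.8 CPM, others 22.6 to 22.9 CPM) and *Tgfb1* (60.4 CPM, others 51.6 to 51.6 CPM). In WT(LID) replicate 2 this held for *Axin2* (3.82 CPM, others 5.48 to 5.75 CPM) and *Dnah5* (52.8 CPM, others 32.97 to 35.3 CPM). WT(ND) replicate 1 stood apart for *Myc* (18.3 CPM, others 20.3 to 20.3 CPM) and *Cdk1* (5.42 CPM, others 6.20 to 6.34 CPM). For WT(LID) replicate 4 the gene was *Pax8* (280.2 CPM, others 329.7 to 339.5 CPM). 

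In the fit over all 16 mice, the diet effect differed between WT and *Glis3*-Pax8Cre mice for 19 of the genes whose interaction is given above. The test was the interaction test of edgeR with Benjamini-Hochberg adjustment. The WT log2 fold change exceeded that of *Glis3*-Pax8Cre by 7.57 for *Adm2*, 6.72 for *Mybpc3*, 3.96 for *Adamts8*, 3.88 for *Car15*, 3.78 for *Itga2*, 3.22 for *Slc5a5*, 2.42 for *Eng*, 2.08 for *Sod3*, 1.999 for *Cdh5*, 1.70 for *Col4a1*, 1.63 for *Cdh16*, 1.20 for *Dio1*, 1.05 for *Ccnd1* and 1.005 for *Kdr*. It was the more negative or smaller one, with a difference of -2.50 for *Ager*, -2.51 for *Slc1a1*, -2.75 for *Acaa1b*, -3.05 for *Slc24a3* and -3.92 for *Lrat*.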

How the results depend on the processing

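Of the 168 genes described, 147 were called and 135 of these kept their direction and their call under all of up to 17 alternatives. These were DESeq2, other size factors, *Tg* left out, 2 filters on low counts, the WT mice alone, the replicate number as a block, each WT mouse left out in turn and, chosen after seeing the data, the 3 WT libraries with the most thymocyte RNA left out (WT(ND) replicates 1 and 2 and WT(LID) replicate 3). The *Glis3*-Pax8Cre libraries with thymocyte RNA stayed in. Without those 3, 527 genes were lower and 914 had an interaction call, in a fit with fewer mice. At an adjusted p under 0.05 with no limit on the fold, 3476 were higher and 3467 lower. Leaving out single mice gave 1177 to 1282 genes higher, 639 to 764 lower and 1476 to 2228 with an interaction call, and DESeq2 gave 2748 of the latter. With the replicate block 1280 genes were higher, 763 lower and 1871 had an interaction call. The replicate number did not pair the WT mice, since same-numbered mice of the 2 diets had correlations of their deviations from -0.18 to 0.19, and 1 of 4 ND mice correlated best with its own number. Under the block the log2 fold changes of *Dcpp1*, *Dcpp3* and *Mybpc3* were 9.06, 9.11 and 7.35.

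Signs turned only for values near 0 that were not called, apart from *Igf1*. *Tg* was at -0.14 under library-size scaling, -0.0020 with the replicate block, -0.056 without the libraries with thymocyte RNA and -0.085 to 0.11 without single mice. *Dusp6* was at -0.043 without the libraries with thymocyte RNA. *Trib3* was at 0.0015 with RLE factors, 2.73e-05 with *Tg* left out and -0.055 to 0.061 without single mice, and *Fbl* at -0.15 under library-size scaling and -0.017 to 0.050 without single mice. Without single mice *Foxe1* ranged from -0.087 to 0.097, *Ddit3* from -0.18 to 0.034, *Igf1* from -0.25 to 0.57 (called without WT(ND) replicate 3) and the interaction of *Tshr* from -0.041 to 0.47. With the block *Igf1* was at 0.11. Fitted on the WT mice alone, *Pax8* was no longer called (adjusted p = 0.085), while *Slc26a7* (log2 fold change 0.26, adjusted p = 0.0356) and *Xbp1* (-0.31, adjusted p = 0.0203) were. With the block *Xbp1* (-0.31, adjusted p = 0.0478) and *Nqo1* (0.52, adjusted p = 0.0133) were called, and so was *Nqo1* without the libraries with thymocyte RNA (0.89, adjusted p = 0.0257). The cause was not tested.

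Of 47 lists 44 had more calls on one side, and 37 kept that side under every alternative. It turned for cell junctions and antioxidant genes under library-size scaling, for ribosome biogenesis without the 3 WT libraries with thymocyte RNA and for thyroid transcription factors without WT(LID) replicate 2, and the other 3 reached a tie. Over the alternatives the number called higher was 64 to 71 of 71 mitosis genes, 33 to 46 of 48 DNA replication genes, 14 of 15 endothelial markers and 19 to 23 of 43 collagens, and 20 to 28 of 36 antigen presentation and interferon genes were called lower. Depth limits low genes: 3 counts are 0.00651 CPM in WT(ND) replicate 4 and up to 0.0475 CPM in the other WT mice, and these limits cover counting error only.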

Other observations

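Clock genes differed between mice of the same diet. *Dbp*, a clock output factor, stood, mouse by mouse, at 52.4, 49.5, 34.5 and 228.5 CPM on ND, with 79.6, 15.0, 14.0 and 84.3 CPM on LID. The clock activator *Arntl* was at 20.6, 18.9, 27.6 and 2.14 CPM on ND and at 5.08, 18.5, 21.5 and 4.56 CPM on LID. The mice with the most *Dbp* were those with the least *Arntl* on both diets, and 1 of 19 clock genes was called higher and 1 lower. The hour at which glands were taken is not given in the sources used here.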
